A study of Mus musculus with 16 samples.

Results

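The core circadian clock loop was followed in mouse somatosensory cortex through 8 of its genes: the activators Arntl, Clock and Npas2 and the repressors Per1, Per2, Per3, Cry1 and Cry2. They were picked by name, as 8 of the 24421 genes listed in the deposited tables, and all 8 were measured in every library. Cortex was collected at ZT4 (4 h after light onset) from undisturbed control mice (CTL) or from mice kept awake by gentle handling from ZT20 to ZT4, an 8 h sleep disruption (SD). Wild-type (WT) mice are labelled C57BL/6, and AcPb-/- mice are homozygous for loss of AcPb, the neuronal isoform of the IL1 receptor accessory protein made from the Il1rap gene. All mice are labelled male and were 2 to 3 months old, bred in house for 5 to 7 generations. The deposited tables hold 3 libraries each of CTL-WT, SD-WT, CTL-AcPb-/- and SD-AcPb-/- mice, 12 of the 16 samples labelled, and the other 4 were not analysed here. Each library is named by its group and the number in its label.

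Each library held between 26504840 and 71857505 reads on genes, and totals were 26504840 to 41615582 in controls and 58770286 to 71857505 after SD, so depth differed between CTL and SD in both genotypes. Summed markers of cortical excitatory neurons were at 1522 to 2118 CPM (read counts scaled to a common library total) in the 12 libraries. They were lower after SD in both genotypes, 1522 to 1724 against 1777 to 1925 in WT mice and 1746 to 1835 against 1949 to 2118 in AcPb-/- mice, with 1 of the 5 markers past the threshold in each direction. Of 3 astrocyte markers, 2 were lower in WT and 1 in AcPb-/- mice. Both red blood cell markers were listed at 0 in every library. Markers of choroid plexus reached 365 CPM in SD-AcPb-/- 04 against 4.38 to 10.4 in the others. In bulk tissue fewer cells of a type and less RNA per cell cannot be told apart, and the part of these markers in the results was not tested. Il1rap was at 31.6 to 42.0 CPM in all libraries, a sum over isoforms that does not check the loss of AcPb.

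In 4 of the 6 control libraries, CTL-WT 02 and 03 and CTL-AcPb-/- 04 and 05, there were 25352 to 39358 reads of Xist, a transcript made from the inactive X chromosome of female cells, and 0 to 2 reads of Y-linked genes. The other 8 libraries, among them all 6 SD libraries, held 5 to 13 Xist reads and 5105 to 10593 reads of Y-linked genes. These reads go against the label of male in 4 control libraries, so the SD effects of named genes are also given without them. Only 1 control library per genotype then remains, so the spread among controls is not measured and only the size of change is given.

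The mammalian clock is a loop of transcription and feedback. CLOCK, or its paralog NPAS2 in forebrain, pairs with BMAL1, the protein of Arntl, and the pair binds E-box elements to switch on the Per and Cry genes. PER and CRY proteins then enter the nucleus and repress that pair, while a second arm of REV-ERB repressors and ROR activators acts on Arntl itself. Outside the suprachiasmatic nucleus, Per genes are also known to respond to wakefulness and to hormones.

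Of the 8 members, 7 matched 11 RefSeq promoters on GRCm38.p6, each running from 250 bases before to 50 bases after a transcript start. Per2 had no match, so its promoter was not searched. Searched on both strands were the E-box CACGTG, the E-box variant CACGTT, the cyclic AMP response element TGACGTCA, its shorter form TGACG (which the long form contains), and the ROR element TAGGTCA. Shown is 1 window each of Per1 and Cry1, the members searched that had an E-box, and of Arntl, the one with a ROR element. Matches are in capitals, and a match on the reverse strand is capitalised where it lies.
Per1, chr11:69098699-69098998, plus strand: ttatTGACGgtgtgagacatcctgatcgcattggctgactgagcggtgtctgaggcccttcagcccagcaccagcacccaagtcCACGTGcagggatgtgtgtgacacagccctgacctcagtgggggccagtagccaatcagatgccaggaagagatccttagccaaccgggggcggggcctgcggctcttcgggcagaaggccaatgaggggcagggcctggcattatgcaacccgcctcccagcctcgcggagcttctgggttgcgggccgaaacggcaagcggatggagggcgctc
Cry1, chr10:85185005-85185304, minus strand: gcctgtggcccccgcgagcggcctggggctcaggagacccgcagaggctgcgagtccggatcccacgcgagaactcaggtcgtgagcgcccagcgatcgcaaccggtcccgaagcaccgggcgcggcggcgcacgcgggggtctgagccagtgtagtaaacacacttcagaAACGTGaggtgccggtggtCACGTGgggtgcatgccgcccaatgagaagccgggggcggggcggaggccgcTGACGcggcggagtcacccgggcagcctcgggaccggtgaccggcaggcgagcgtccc
Arntl, chr7:113207261-113207560, plus strand: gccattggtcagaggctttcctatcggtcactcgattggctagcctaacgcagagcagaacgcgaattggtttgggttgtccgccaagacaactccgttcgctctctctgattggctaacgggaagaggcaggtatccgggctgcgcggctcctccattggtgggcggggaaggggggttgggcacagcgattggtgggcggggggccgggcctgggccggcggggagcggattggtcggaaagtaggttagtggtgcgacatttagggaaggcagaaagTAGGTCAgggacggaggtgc
The Per1 window shown held TGACG 246 bases and CACGTG 166 bases before the start. Another Per1 window, chr11:69099902-69100201, held no E-box and had TGACG 132 bases before its start. In the Cry1 window CACGTT lay 79, CACGTG 60 and TGACG 8 bases before the start. The Arntl window shown held TAGGTCA 30 bases after the start, and another Arntl window, chr7:113207215-113207514, held none of the motifs. CACGTG was in 2 of the 11 member windows and in 7.15% of all 32851 RefSeq promoter windows of the same 300 bases. For CACGTT these were 2 of 11 and 4.68%, for TGACG 4 of 11 and 20.8%, for TAGGTCA 1 of 11 and 2.61%, and for TGACGTCA 0 of 11 and 1.79%. A match describes the letters only.

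The first question was whether the loop moved with SD in WT mice. Arntl, Clock, Npas2, Per2 and Cry1 were higher after SD and Per3 was lower, while Per1 and Cry2 did not pass the test. Thus 6 of 8 members passed an adjusted p under 0.05, against 25.4% of the 20417 genes tested (13.2% higher, 12.2% lower). The median log2 fold change of the 8 was 0.36, against -0.0039 over all genes tested. In AcPb-/- mice Arntl, Clock, Npas2 and Per2 were higher, so 4 of 8 passed, against 27.4% of 20574 genes (14.1% higher, 13.3% lower), with a median of 0.32 against 0.014. The share was larger among genes with a mean of at least 10 normalized counts, where all 8 members lie. Of these genes 5445 of 16062 passed in WT and 5992 of 16074 in AcPb-/- mice. Without the libraries with Xist reads calls of the 8 members are not counted, as the spread among controls is not measured. There the log2 fold changes of Per1 and Per2 were larger in both genotypes, and those of Clock, Npas2 and Per3 were smaller in size. In fits with 3 libraries a group, log2 changes of 0.5 placed in simulated data were recovered for 19 of 100 genes in WT and 23 of 100 in AcPb-/- mice, and changes of 1 for 84 and 87 of 100. Only 100 of 16026 and 100 of 16112 genes carried each size of change, a far smaller share than passed with SD, and all had 1 set spread. The shares recovered are therefore not the power of the SD tests.

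**Figure D1:**
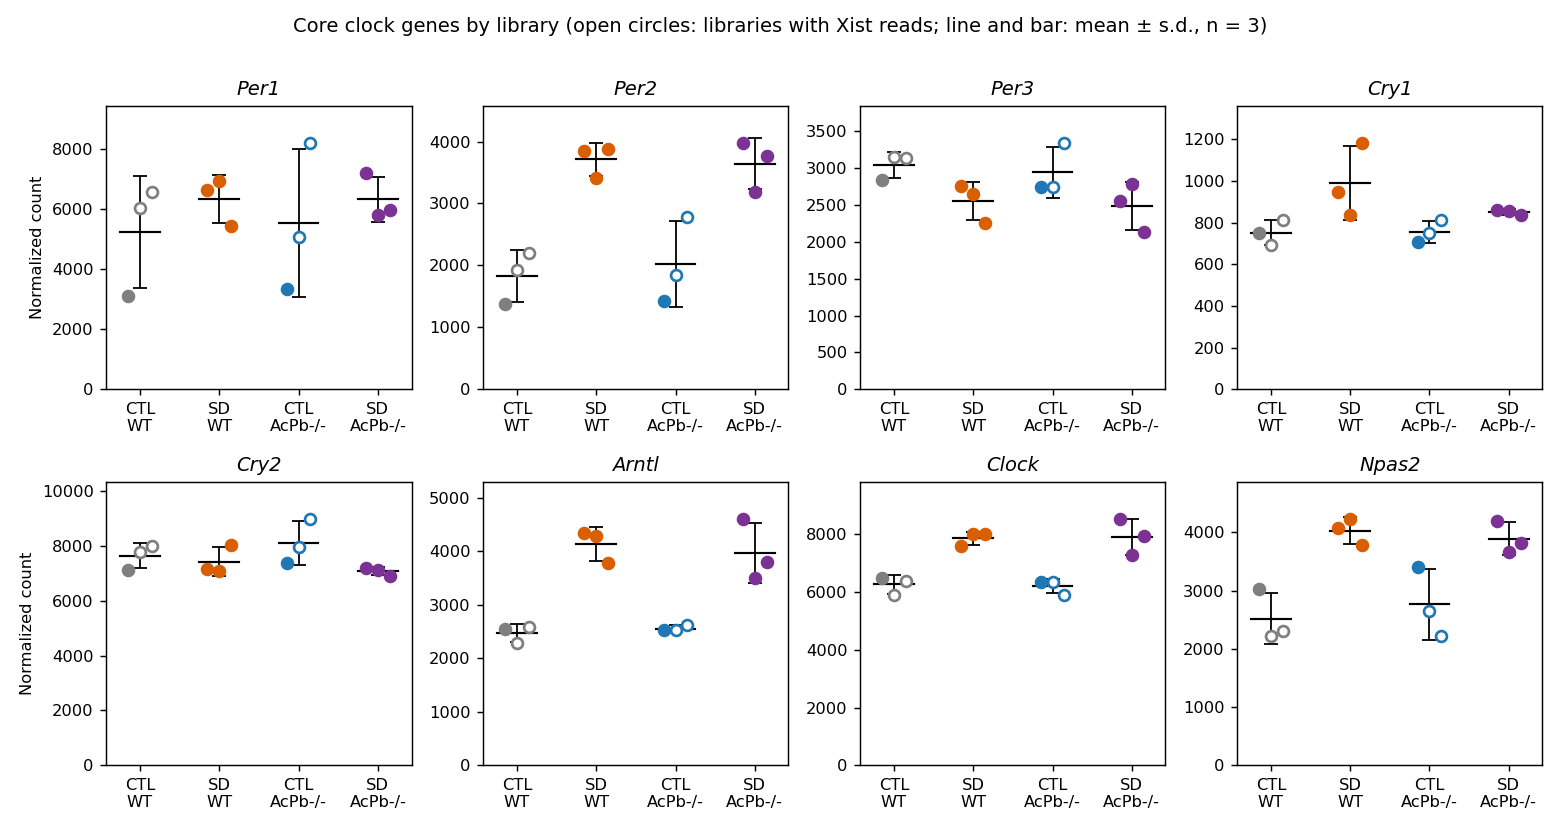
Normalized counts of the 8 core clock genes by library (linear axis from 0, 1 panel per gene), with CTL and SD libraries of both genotypes as points and the mean ± s.d. of 3 libraries as line and bar. Open circles are the 4 control libraries with Xist reads. The 3 SD points of Arntl, Clock, Npas2 and Per2 lie above the 3 control points in both genotypes, while Per1 control points range from 3114 to 8191.

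Levels below are normalized counts on 1 scale set over the 12 libraries, as mean ± s.d. (n = 3), and differences are log2 fold changes on the log2(normalized count + 1) scale with their standard error (SE). Arntl (chr7:113207465-113314126, plus strand, GENCODE M21 on GRCm38), the gene of BMAL1, was at like levels in the controls of both genotypes. Its normalized counts were 2557, 2286 and 2589 in CTL-WT 01, 02 and 03, and 4348, 4285 and 3774 in SD-WT 01, 02 and 04. Those of AcPb-/- mice were 2524, 2523 and 2626 in controls 03, 04 and 05, and 4602, 3501 and 3804 in SD 02, 03 and 04. The lowest SD library was above the highest control in both genotypes. Arntl went from 2477 ± 166.6 to 4136 ± 314.9 in WT mice, a log2 fold change of 0.74 (SE 0.076, adjusted p = 0.000293), and from 2558 ± 59.1 to 3969 ± 568.7 in AcPb-/- mice, a log2 fold change of 0.63 (SE 0.095, adjusted p = 0.00237). Both calls held with each of the 6 libraries left out in turn. Without the 4 libraries with Xist reads the log2 fold changes were 0.69 and 0.65.

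Clock (chr5:76209868-76304792, minus strand), the partner of BMAL1, rose by less. Normalized counts of Clock were 6485, 5899 and 6377 in the CTL-WT libraries and 7599, 7983 and 7985 in the SD-WT libraries. The AcPb-/- libraries had 6340, 6348 and 5904 in controls and 8513, 7263 and 7936 after SD. Here too all SD libraries were above all controls of their genotype. The means were 6254 ± 311.9 and 7855 ± 221.9 in WT mice, a log2 fold change of 0.33 (SE 0.06, adjusted p = 0.00373). In AcPb-/- mice they were 6197 ± 253.8 and 7904 ± 625.7, a log2 fold change of 0.35 (SE 0.071, adjusted p = 0.00775). Both calls held with each library left out, and without the libraries with Xist reads the log2 fold changes were 0.28 and 0.32.

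Npas2 (chr1:39193731-39363236, plus strand), the forebrain paralog of Clock, rose in both genotypes but had unlike controls. Normalized counts of Npas2 were 3023, 2228 and 2302 in the CTL-WT libraries against 4079, 4227 and 3778 in SD-WT. Those of AcPb-/- mice were 3411, 2659 and 2217 in controls against 4203, 3655 and 3819 after SD. The groups did not overlap, yet in each genotype the highest control was the library without Xist reads. The means went from 2518 ± 439 to 4028 ± 228.5 in WT mice, a log2 fold change of 0.69 (SE 0.11, adjusted p = 0.00174), and from 2763 ± 603.8 to 3892 ± 281.2 in AcPb-/- mice, a log2 fold change of 0.52 (SE 0.14, adjusted p = 0.0244). The WT call held with each library left out. The AcPb-/- call was lost without CTL-AcPb-/- 04 (adjusted p = 0.0814), CTL-AcPb-/- 05 (0.0514), SD-AcPb-/- 02 (0.11) or SD-AcPb-/- 04 (0.0646). Without the libraries with Xist reads the log2 fold changes of Npas2 were 0.41 in WT and 0.19 in AcPb-/- mice.

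Per2 (chr1:91415982-91459324, minus strand), a repressor of the CLOCK and BMAL1 pair, had the largest change of the 8 members in both genotypes. Per2 normalized counts were 1373, 1924 and 2203 in the CTL-WT libraries and 3847, 3409 and 3880 in SD-WT. The AcPb-/- libraries had 1430, 1849 and 2785 in controls and 3977, 3180 and 3764 after SD. All SD libraries exceeded all controls of their genotype, and the lowest control in each genotype was the library without Xist reads. The means were 1833 ± 422 and 3712 ± 262.9 in WT mice, a log2 fold change of 1.04 (SE 0.14, adjusted p = 0.00103), and 2021 ± 693.6 and 3641 ± 412.5 in AcPb-/- mice, a log2 fold change of 0.90 (SE 0.21, adjusted p = 0.0136). The WT call held with each library left out, and the AcPb-/- call was lost without CTL-AcPb-/- 04 (adjusted p = 0.0552) or SD-AcPb-/- 02 (0.0744). Without the libraries with Xist reads the log2 fold changes of Per2 were larger, 1.43 in WT and 1.34 in AcPb-/- mice.

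Per1 (chr11:69095217-69109960, plus strand), a Per gene known to be induced quickly by light and by hormones, did not pass the test in either genotype. Per1 normalized counts were 3114, 6024 and 6568 in CTL-WT 01, 02 and 03, against 6625, 6939 and 5438 in SD-WT. In AcPb-/- mice they were 3331, 5066 and 8191 in CTL 03, 04 and 05, against 7186, 5802 and 5950 after SD. The groups overlapped in both genotypes: SD-WT 04 lay within the range of the CTL-WT libraries and the other 2 above it, and all 3 SD-AcPb-/- libraries lay within the range of their controls, while the low control in each, CTL-WT 01 and CTL-AcPb-/- 03, was the one without Xist reads. The means were 5235 ± 1857 and 6334 ± 791.8 in WT mice, a log2 fold change of 0.34 (95% interval -0.17 to 0.84, adjusted p = 0.314), and 5529 ± 2463 and 6313 ± 760 in AcPb-/- mice, a log2 fold change of 0.28 (SE 0.27, adjusted p = 0.485).

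The Per1 difference turned on the control libraries it was set against. The SD-WT mean was 2.03 times the control without Xist reads and 1.01 times the mean of the 2 controls with them, and in AcPb-/- mice these ratios were 1.9 and 0.952. With a term for Xist reads in a fit of the 12 libraries, the log2 fold change of Per1 was 0.99 (adjusted p = 0.00375) in WT and 0.94 (adjusted p = 0.00311) in AcPb-/- mice. Without the 4 libraries it was 1.02 and 0.92, each against 1 control library, so the spread among controls was not measured. Leaving out CTL-WT 01 gave 0.0012 (adjusted p = 0.994) and leaving out CTL-WT 03 gave 0.54 (adjusted p = 0.112). Leaving out CTL-AcPb-/- 03 gave -0.034 (adjusted p = 0.904) and leaving out CTL-AcPb-/- 05 gave 0.62 (adjusted p = 0.0354). As all 6 SD libraries lack Xist reads, the effect of SD on Per1 and a difference between these 2 kinds of control library cannot be told apart from the full set of controls.

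**Figure D2:**
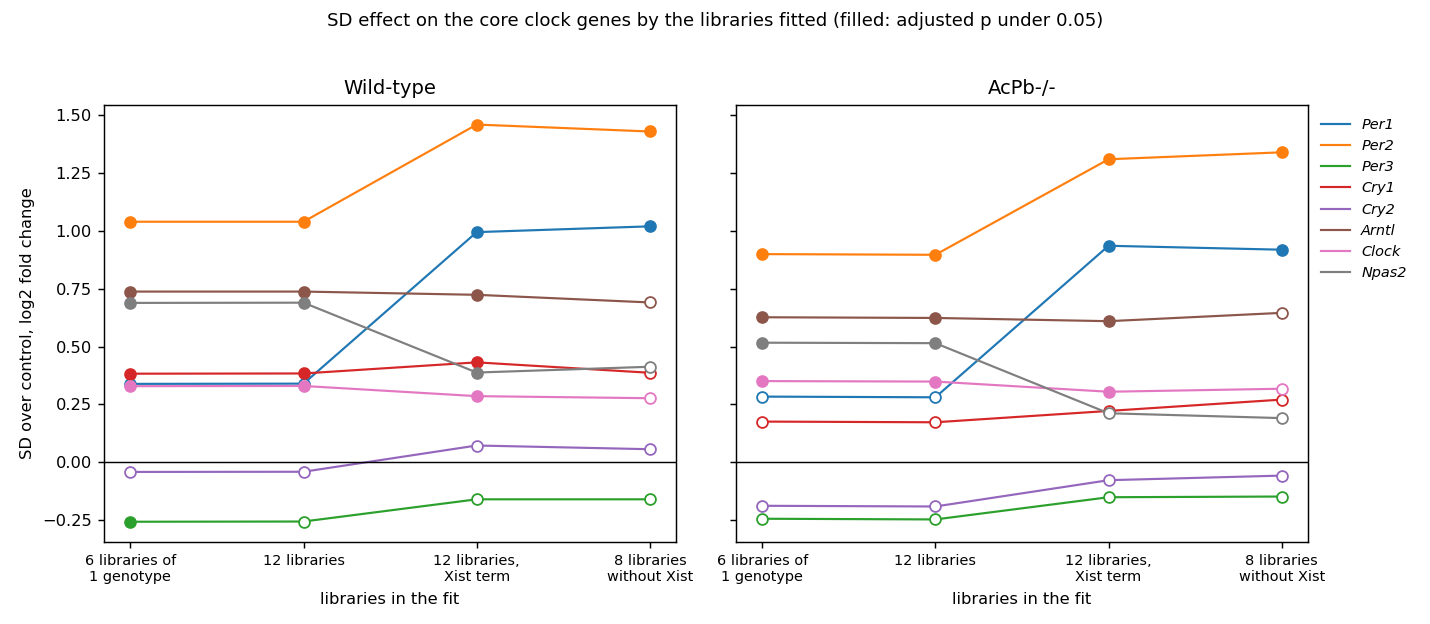
SD effect on each core clock gene (log2 fold change, SD over control) in WT and AcPb-/- mice, 1 line per gene, from the 6 libraries of 1 genotype, from 12 libraries, from 12 libraries with a term for Xist reads and from the 8 libraries without Xist reads. Filled points have an adjusted p under 0.05, which in the fit of 8 libraries rests on the spread among SD libraries alone. Per1 moves from 0.34 to 1.02 in WT and from 0.28 to 0.92 in AcPb-/- mice, Npas2 falls to 0.41 and 0.19, and Arntl stays between 0.61 and 0.74.

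Per3 (chr4:151003652-151044665, minus strand), the third Per paralog, was lower after SD in WT mice and did not pass the test in AcPb-/- mice. Per3 normalized counts were 2844, 3151 and 3137 in CTL-WT and 2759, 2648 and 2258 in SD-WT, with no overlap. Those of AcPb-/- mice were 2744, 2749 and 3342 in controls and 2548, 2779 and 2131 after SD, and the groups overlapped. The means were 3044 ± 173.1 and 2555 ± 263.2 in WT mice, a log2 fold change of -0.26 (SE 0.082, adjusted p = 0.043), and 2945 ± 343.9 and 2486 ± 328.1 in AcPb-/- mice, a log2 fold change of -0.24 (SE 0.11, adjusted p = 0.143). The WT call was lost without CTL-WT 02 (adjusted p = 0.151), CTL-WT 03 (0.113), SD-WT 02 (0.081) or SD-WT 04 (0.0678). It was also lost when libraries were thinned to the smallest total (0.055), with a pseudocount of 10 (0.0511), without the variance trend (0.148) and in the joint fit of 12 libraries (0.104). Without the libraries with Xist reads the log2 fold changes of Per3 were -0.16 in WT and -0.15 in AcPb-/- mice.

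Cry1 (chr10:85131700-85185064, minus strand), a strong repressor of the loop, had the lowest mean level of the 8 per length of exon over the 12 libraries, though not in SD-WT mice, where it was at 6.15 RPKM (reads divided by exon length and library total) and Per3 at 5.51. Cry1 normalized counts were 748.1, 693 and 812.5 in CTL-WT and 946.9, 835.7 and 1183 in SD-WT. The AcPb-/- libraries had 707.1, 750.4 and 810.7 in controls and 861.1, 857.9 and 835.7 after SD. The groups did not overlap in either genotype. The means were 751.2 ± 59.8 and 988.7 ± 177.6 in WT mice, a log2 fold change of 0.38 (SE 0.12, adjusted p = 0.0394), and 756.1 ± 52.1 and 851.6 ± 13.8 in AcPb-/- mice, a log2 fold change of 0.18 (SE 0.076, adjusted p = 0.121). The WT call was lost without CTL-WT 01 (adjusted p = 0.0841), CTL-WT 02 (0.148), SD-WT 01 (0.0899) or SD-WT 04 (0.0705). It was also lost when libraries were thinned to the smallest total (0.0761), with a pseudocount of 10 (0.0538) and without the variance trend (0.141). Without the libraries with Xist reads the log2 fold changes were 0.39 in WT and 0.27 in AcPb-/- mice.

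Cry2 (chr2:92403646-92434043, minus strand), the second Cry repressor, had the highest mean level per length of exon over the 12 libraries and no call in either genotype. Cry2 normalized counts were 7124, 7772 and 7991 in CTL-WT and 7160, 7067 and 8031 in SD-WT, which overlapped. In AcPb-/- mice they were 7383, 7965 and 8966 in controls and 7201, 7122 and 6912 after SD, all below the controls. The means were 7629 ± 450.6 and 7419 ± 531.8 in WT mice, a log2 fold change of -0.042 (SE 0.07, adjusted p = 0.705), and 8105 ± 801 and 7078 ± 149.5 in AcPb-/- mice, a log2 fold change of -0.19 (SE 0.075, adjusted p = 0.0972). Without CTL-AcPb-/- 03 the AcPb-/- value passed at -0.25 (adjusted p = 0.0311), and without the libraries with Xist reads the values were 0.057 in WT, a turn of sign, and -0.058 in AcPb-/- mice. Of the exon bases of Cry2, 4.7% also lie in exons of D930015M05Rik on the other strand, and whether reads were counted by strand is not given in the sources used here.

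By groups that did not overlap, 5 members were higher and 1 lower after SD in WT mice, against 40.2% of all genes tested (20.5% higher, 19.7% lower). AcPb-/- mice had the same counts, against 42.3% (21.7% higher, 20.7% lower). The lower member was Per3 in WT and Cry2 in AcPb-/- mice.

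**Figure D3:**
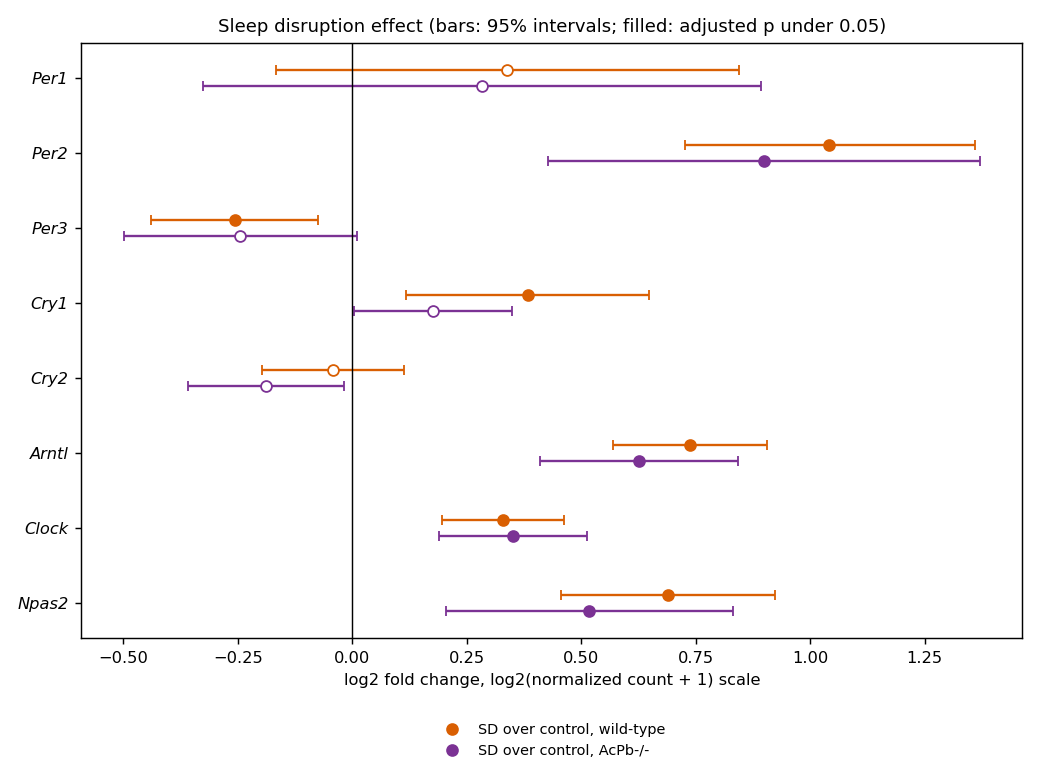
SD effect on the 8 core clock genes in WT and AcPb-/- mice (log2 fold change on the log2(normalized count + 1) scale, points) with 95% intervals as bars and filled points for an adjusted p under 0.05. Arntl, Clock, Npas2 and Per2 are filled in both genotypes, and the Per1 interval in WT mice runs from -0.17 to 0.84.

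The second question was whether loss of AcPb moved the loop. In undisturbed mice 0 of 8 members differed between genotypes in limma, against 0.0197% of 20273 genes (4 genes). An unadjusted p under 0.05 was found for 0 of 8 members, against 1730 of the 20273 genes. DESeq2 and edgeR called 93 and 8 of all genes, none a member. After SD 0 of 8 members differed, against 0.0145% of 20621 genes (3 genes). Again 0 of 8 had an unadjusted p under 0.05, against 1265 of the 20621 genes. DESeq2 and edgeR then called 97 and 9 of all genes, none a member. All 8 members overlapped between genotypes in both states, where 14.4% and 11.4% of all genes did not. Among undisturbed mice the widest 95% interval was that of Per1, a log2 fold change of 0.054 (-0.69 to 0.80), and the narrowest that of Clock at -0.013. After SD, Cry1 had the largest difference, -0.20 (-0.46 to 0.059), with normalized counts of 835.7 to 1183 in SD-WT and 835.7 to 861.1 in SD-AcPb-/- mice. These intervals leave room for changes of such size, so equal levels are not shown.

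The difference of the SD effects (AcPb-/- minus WT) was the interaction term when limma was fitted to all 12 libraries. No member passed, nor did any of the 20978 genes (0%), of which 839 had an unadjusted p under 0.05. DESeq2 called 1 gene and edgeR 0. The log2 differences were -0.15 for Per2 (95% interval -0.78 to 0.49), -0.059 for Per1 (-0.97 to 0.85), 0.0095 for Per3 (-0.32 to 0.34), -0.21 for Cry1 (-0.54 to 0.12) and -0.15 for Cry2 (-0.38 to 0.079). For the activators they were -0.11 for Arntl (-0.39 to 0.17), 0.019 for Clock (-0.18 to 0.21) and -0.18 for Npas2 (-0.60 to 0.25). Adjusted p was 0.986 or above for all 8. Calls in WT mice that were missed in AcPb-/- mice, those of Per3 and Cry1, are therefore not shown to differ between genotypes. In simulated data this test recovered 4 of 100 differences of 0.5 and 52 of 100 of 1. There only SD-AcPb-/- libraries were changed, 100 of 16062 genes carried each size, and all genes had 1 set spread. These shares are therefore not the power of the test in the real libraries.

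**Figure D4:**
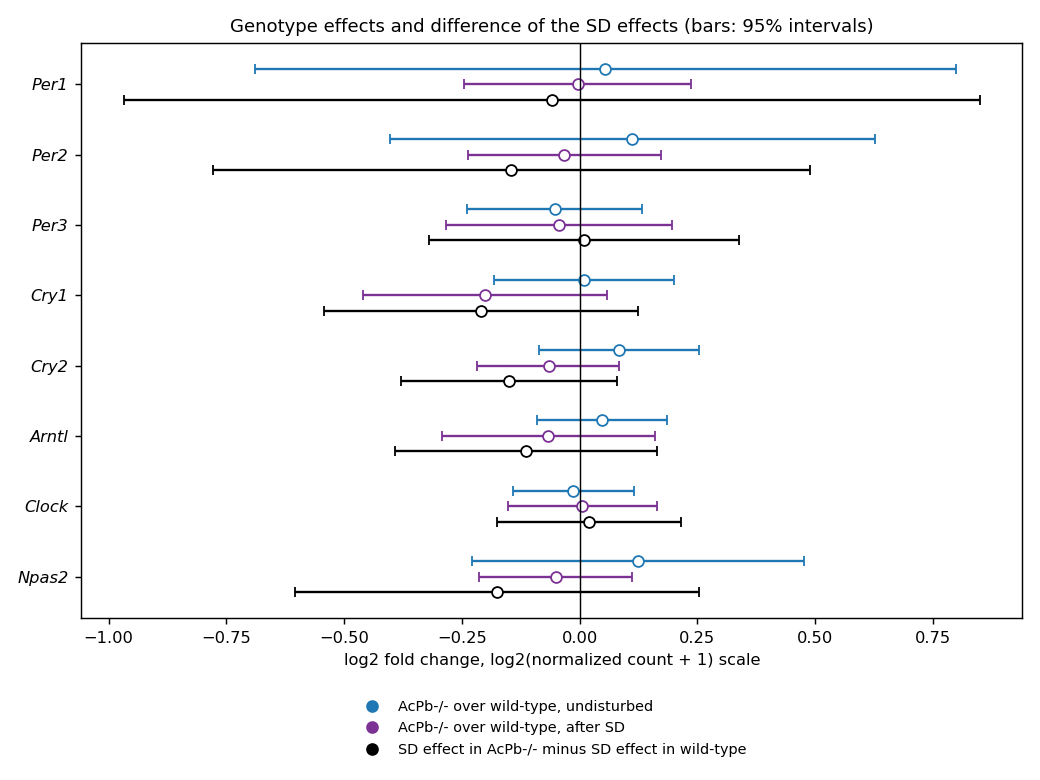
Difference between genotypes for the 8 core clock genes in undisturbed mice and after SD, and the SD effect in AcPb-/- minus that in WT mice (log2 scale, points with 95% intervals as bars). Every interval includes 0, and the widest is that of the Per1 difference of SD effects, from -0.97 to 0.85.

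SD-AcPb-/- mice were also set against CTL-WT mice, a comparison that shares its libraries with those above. There Per2 (log2 fold change 1.01), Arntl (0.67), Npas2 (0.64) and Clock (0.34) were higher and Per3 (-0.30) was lower. These are 5 of 8, against 27.7% of 20560 genes (14.1% higher, 13.6% lower). Per1 (0.34), Cry1 (0.18) and Cry2 (-0.10) did not pass. With each library left out in turn, the Per3 call held in 2 of 6 fits. Those of Per2, Arntl, Npas2 and Clock held in 6 of 6. CTL-WT 02 and 03 held Xist reads and no SD library did, so this comparison carries that difference too.

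Among the 6 controls alone, the 2 libraries without Xist reads and the 4 with them had levels that did not overlap for 4 of the 8 members, where the same held for 21.6% of 20273 genes, given here as a description of so few libraries. Normalized counts were 3114 to 3331 without and 5066 to 8191 with Xist reads for Per1, 1373 to 1430 and 1849 to 2785 for Per2, and 7124 to 7383 and 7772 to 8966 for Cry2. Npas2 went the other way, 3023 to 3411 without and 2217 to 2659 with Xist reads. Per3, Cry1, Arntl and Clock overlapped. Markers of striatal neurons and of oligodendrocytes also differed among the controls, with striatal markers highest in CTL-WT 01 at 284 CPM and oligodendrocyte markers lowest in CTL-AcPb-/- 04 and 05 at 940 and 1270 CPM, and their part in these levels was not tested.

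On the RPKM scale, averaged over the 12 libraries, the members ran from Cry2 at 25.3 through Per1 at 21.9, Npas2 at 14.5, Clock at 10.8, Per2 at 10.1, Arntl at 9.18 and Per3 at 6.06 to Cry1 at 5.28. Neighbours were not all apart. Cry2 exceeded Per1 in 8 of 12 libraries, and Clock exceeded Per2 in 5 of 12. Npas2 was above Clock in 12 of 12, Arntl above Per3 in 11, Per1 above Npas2 and Per3 above Cry1 in 10, and Per2 above Arntl in 9.

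Members were also compared by how they varied together, over 12 libraries that share 4 groups and unequal depth. The 3 activators rose and fell together, with r = 0.96 for Arntl and Clock, 0.91 for Clock and Npas2 and 0.88 for Arntl and Npas2. After removal of each group's mean these were 0.63, 0.6 and 0.31. Per1 and Per2 had r = 0.74 over the libraries and 0.91 within groups. Npas2 ran against them within groups, with r = -0.81 to Per1, -0.83 to Per2 and -0.85 to Cry2. Per1, Per2, Cry2 and Npas2 are also the members whose controls split by Xist reads without overlap. Removal of group means leaves that split in place, and its part in these r values was not tested. Among 12498 genes with a mean of at least 100 normalized counts, the patterns most like Arntl over the 12 libraries were those of Zmynd8 (r = 0.991), Cnot2 (0.989) and Upf2 (0.986). For Clock they were Pdcd6ip (0.988), St8sia3 (0.986) and Map4k3 (0.985), for Npas2 Nrf1 (0.975), Dscaml1 (0.972) and P4ha3 (0.97), and for Per2 Dnajb5 (0.975), Sult1a1 (0.971) and Fam212b (0.967).

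Around the loop lie clock-controlled transcription factors, kinases and ubiquitin ligases, listed as 25 other clock genes, all measured. In WT mice 3 were higher and 8 lower after SD, against 13.2% and 12.2% of all genes, with a median log2 fold change of -0.11. In AcPb-/- mice 3 were higher and 6 lower, against 14.1% and 13.3% of all genes, with a median of -0.071, so the 3 higher of 25 in each genotype were close to the share of all genes. Of the 25, 7 passed in both genotypes. The share of all genes that passed in both was not counted, so the 7 serve only to pick names. In the fit that left out the libraries with Xist reads 1 of 25 passed in WT and 2 in AcPb-/- mice, against 3.31% and 10.1% of all genes. That fit has 1 control library per genotype, so these counts rest on the spread among SD libraries alone. They are not read as a loss of calls. With all libraries, 0 of 25 differed between genotypes in either state, and 0 of 25 passed in the difference of SD effects. At an unadjusted p under 0.05 were 4 of 25 in undisturbed mice, against 1730 of 20273 genes. After SD these were 2 of 25, against 1265 of 20621 genes. In the difference of SD effects they were 0 of 25, against 839 of 20978 genes. Named are the 6 of those 7 with the largest mean size of change. Dbp, an output of the loop driven through E-boxes, had the largest fall, from 1777 ± 530 to 514.6 ± 121.8 normalized counts in WT mice and from 2158 ± 713.1 to 710 ± 238 in AcPb-/- mice. Its log2 fold changes were -1.77 (SE 0.23, adjusted p = 0.000831) and -1.59 (SE 0.27, adjusted p = 0.00353), and 18% of its exon bases overlap Sphk2 on the other strand. Tef, a paralog of Dbp, fell by less, with log2 fold changes of -0.36 and -0.38, and Nfil3, which represses through the same sites that DBP and TEF activate, rose by 0.45 and 0.61. Without the libraries with Xist reads the log2 fold changes in WT and AcPb-/- mice were -1.22 and -1.10 for Dbp, -0.30 and -0.26 for Tef, and 0.57 and 0.71 for Nfil3. The Dbp and Tef calls held with each library left out, and so did the Nfil3 call in AcPb-/- mice. In WT mice the Nfil3 call was lost without CTL-WT 01 (adjusted p = 0.0933), CTL-WT 02 (0.118), SD-WT 01 (0.0554) or SD-WT 04 (0.0616).

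Nr1d1, the REV-ERB alpha gene whose protein represses Arntl, fell in both genotypes. It went from 9570 ± 1288 to 6938 ± 912.9 normalized counts in WT mice (log2 fold change -0.46, SE 0.11, adjusted p = 0.0148) and from 11273 ± 1890 to 7576 ± 582.8 in AcPb-/- mice (-0.56, SE 0.12, adjusted p = 0.00935), with 8.5% of its exon bases shared with Thra on the other strand. These log2 fold changes were -0.23 and -0.29 without the libraries with Xist reads, and the WT call was lost without CTL-WT 02 (adjusted p = 0.0728). Ciart, an inhibitor of the CLOCK and BMAL1 pair, had log2 fold changes of -0.90 (adjusted p = 0.029) and -0.92 (adjusted p = 0.0181), which rested on the controls with Xist reads. The SD-WT mean was 0.926 times the control without Xist reads, 389.9 normalized counts, and 0.409 times the mean of those with them, 881.9, and the SD-WT and CTL-WT libraries overlapped. In AcPb-/- mice these ratios were 0.75 and 0.435. The log2 fold changes of Ciart without the libraries with Xist reads were -0.11 and -0.42. Its WT call was lost without each library but CTL-WT 01 (adjusted p = 0.0645 to 0.121), and its AcPb-/- call without CTL-AcPb-/- 04 (0.0583), SD-AcPb-/- 02 (0.0754) or SD-AcPb-/- 04 (0.066). Of Ciart, 4% of the stretches of 100 exon bases also occur in Gm9176. Usp2, a deubiquitinase under clock control, fell by 0.58 and 0.65 on the log2 scale. Both Usp2 calls held with each library left out, and without the libraries with Xist reads the log2 fold changes were -0.33 and -0.56.

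**Figure D5:**
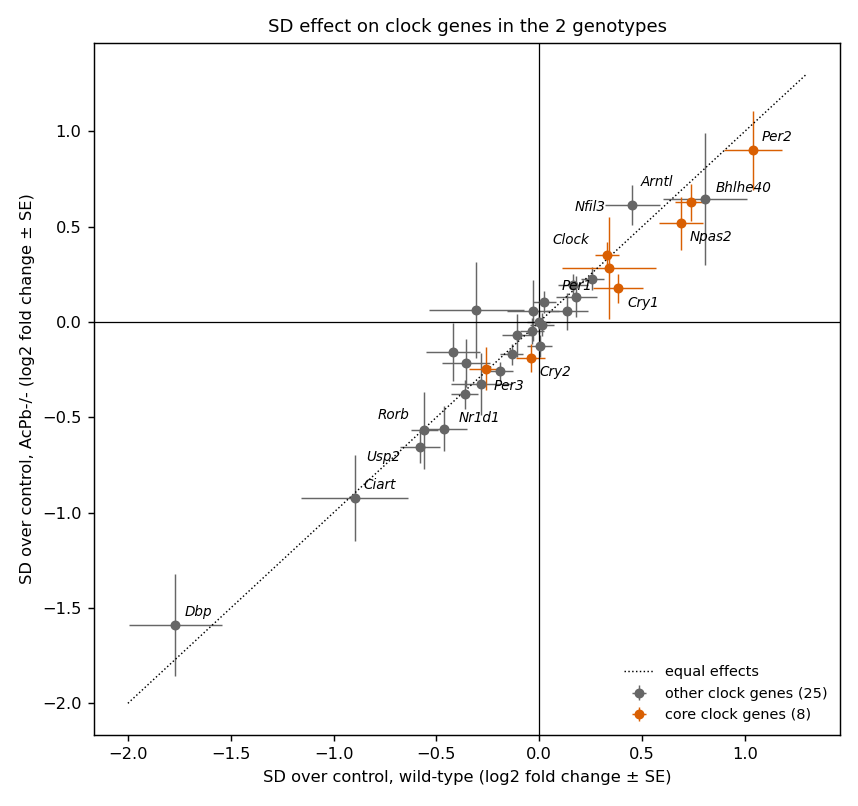
Log2 fold change of SD over control in WT (horizontal) against AcPb-/- mice (vertical) for the 8 core and the 25 other clock genes, points with SE bars and a dotted line of equal effects. The 2 comparisons share no library. Dbp is lowest at -1.77 and -1.59, Per2 highest at 1.04 and 0.90, and Nr1d1, Usp2 and Ciart lie between -0.46 and -0.92 on both axes.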

How the data were processed

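Total RNA of somatosensory cortex was made into stranded mRNA libraries and sequenced. Per the labels, the authors aligned reads with HISAT2 2.2.1 to mm10 and counted them with featureCounts, where the study's methods name HTSeq, and normalized them with DESeq2 1.31.16, 2 groups to a table, in 5 tables. The deposited per-library values are a signal, the read count divided by the library's size factor in that table. The authors' own comparison columns hold log2 fold changes with their errors on the log2 scale, a Wald statistic that is a score, and p-value columns, and were not used.

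Reads were recovered by undoing the size factors, and 100.0% of 732630 values came within 0.01 of a whole read. Printed levels use size factors set over the 12 libraries together. Tests were made with limma 3.58.1 (R 4.3.3) on log2(normalized count + 1) within each deposited table, with a trend of the variance with level. Genes with 0 reads in all libraries compared were left out. P-values were two-sided and adjusted over all genes tested by the Benjamini-Hochberg method, with a threshold of 0.05. The plan named edgeR for counts, and edgeR 4.0.16 and DESeq2 1.42.0 were alternatives on the recovered reads. The difference of SD effects was fitted over 12 libraries. Other alternatives were an adjusted p under 0.01, a mean of at least 10, pseudocounts of 0.1 and 10, no variance trend, centring on the median, thinning to the smallest total (seed 1), joint fits, a term for or removal of libraries with Xist reads (at least 100 CPM), a replicate block and each library left out.

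The members and lists were chosen with earlier results of these data known. All 8 members are named in each comparison, and of the other clock genes the 6 with the largest mean absolute change among those past the threshold in both genotypes. Each pair of replicates differed beyond sampling noise (chi-square per gene 6.61 to 34.2). The replicate numbers do not pair the samples. The p-values measure only the spread between these libraries. Tests were tested on simulated data with known changes. Positions come from GENCODE M21, and counting of overlapping strands is not given in the sources used here. Figures used Python 3.11.15, NumPy 2.4.6, pandas 2.3.3 and matplotlib 3.10.9.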

Additional observations from a re-analysis of the deposited data

How the results depend on the processing

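There were 3 libraries a group and 1 control library per genotype free of Xist reads, and controls were sequenced less deeply than SD libraries. Log2 changes of 0.5 were seldom recovered in simulated data, where far fewer genes changed than passed with SD. With SD 6 core clock genes were past the threshold in WT and 4 in AcPb-/- mice. In WT mice 4 were left at an adjusted p under 0.01, with a pseudocount of 10, without the variance trend and when thinned to the smallest total. The number of all genes past the threshold went from 5186 to 2360, 5050, 2536 and 4769 in these settings, in that order. In AcPb-/- mice 2 were left at an adjusted p under 0.01 and without the variance trend, where the number of all genes went from 5633 to 2656 and 3608. Leaving out each library gave 4 to 5 in WT and 2 to 5 in AcPb-/- mice, with 2 without CTL-AcPb-/- 04 and 2 without SD-AcPb-/- 02. All genes past the threshold then numbered 2699 to 6222 in WT and 3393 to 5412 in AcPb-/- mice. The other clock genes past the threshold, 11 in WT and 9 in AcPb-/- mice, were 5 in WT mice at an adjusted p under 0.01, 5 and 5 without the variance trend, and 5 to 10 and 6 to 12 with each library left out (in WT mice 5 without CTL-WT 02, 6 without SD-WT 01 and 7 without SD-WT 02). SD-AcPb-/- against CTL-WT mice gave 5 core genes, 3 without the variance trend and 4 to 5 with each library left out. The numbers of all genes were 5697, 3401 and 3393 to 6008. The counts for genotype and for the difference of SD effects were 0 in each alternative. The fits without the libraries with Xist reads have 1 control library per genotype and measure no spread among controls. Their calls with SD are therefore not read as results. The cause of the changes was not tested.

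Per1 gave 0.99 and 0.94 with the Xist term, and 0.0012 to 0.54 in WT and -0.034 to 0.62 in AcPb-/- mice with each library left out. Signs turned for Cry2 with SD in WT mice, 0.073 with the Xist term and 0.057 without those libraries, and against CTL-WT in SD-AcPb-/- mice, 0.0069 with the Xist term. Between genotypes in undisturbed mice they turned without those libraries for Cry1 (-0.084) and Arntl (-0.021). Leaving out each library, differences between genotypes in undisturbed mice ran from -0.28 to 0.37 for Per1, -0.15 to 0.33 for Per2, -0.054 to 0.022 for Clock, -0.047 to 0.066 for Cry1, -0.0091 to 0.079 for Arntl and -0.041 to 0.27 for Npas2. After SD they ran from -0.11 to 0.066 for Per1, -0.098 to 0.062 for Per2, -0.13 to 0.061 for Per3, -0.048 to 0.066 for Clock and -0.18 to 0.020 for Arntl. Per1 in SD-AcPb-/- against CTL-WT mice ran from -0.00089 to 0.54. The differences of SD effects ran from -0.38 to 0.28 for Per1, -0.37 to 0.11 for Per2, -0.077 to 0.12 for Per3 and -0.036 to 0.078 for Clock. None of these differences between genotypes or of SD effects was past the threshold. Per1 with SD passed with the Xist term (adjusted p = 0.00375 and 0.00311) and in AcPb-/- mice without CTL-AcPb-/- 05 (0.0354). In SD-AcPb-/- against CTL-WT mice it passed with the Xist term (0.00285).

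The replicate numbers in the labels gave same-number correlations of deviations from -0.43 to 0.23, so they were not taken to pair the samples. With the number as a replicate block, 1 residual degree of freedom was left in each SD comparison. Of all genes 0 of 20417 passed in WT and 0 of 20574 in AcPb-/- mice. In SD-AcPb-/- against CTL-WT mice 0 of 20560 passed. That 0 core and 0 other clock genes passed therefore says nothing about clock genes. The block turned the genotype difference after SD for Per1 (0.090), Per2 (0.089), Arntl (0.057) and Npas2 (0.0030), and the difference of SD effects for Per1 (0.22), Per2 (0.17), Per3 (-0.0033) and Clock (-0.011), with 0 past the threshold. No paired analysis was possible because undisturbed WT and AcPb-/- mice share 1 number, for the comparison of genotypes in undisturbed mice.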
